A study of Mus musculus with 24 samples.

Results

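The enzymes that remove superoxide and peroxides were followed in mouse blastocysts through 10 genes: the superoxide dismutases Sod1 and Sod2, catalase (Cat), the glutathione peroxidases Gpx1 and Gpx4, and the peroxiredoxins Prdx1, Prdx2, Prdx3, Prdx5 and Prdx6. The genes were chosen by symbol and were looked up in the array's platform annotation among probe sets with 1 gene symbol. The annotation used here named 8 of the 10, out of 19938 genes in all. Prdx5 and Prdx6 were not listed under 1 symbol and are not analysed here. All 8 passed the filter on dim genes, which asked for at least 4 arrays above the table's median of 2.56. Sod1, Cat, Gpx1, Gpx4 and Prdx1 exceeded that median on all 24 arrays, Sod2 on 22, Prdx2 on 17 and Prdx3 on 16.

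The parents were NMRI mice, an outbred stock, put at 3 weeks of age on either a modified high-fat and high-calorie feed or its control feed. After 9 weeks on these feeds, aged 12 weeks, they were mated, and every animal received the control feed during mating. Embryos were isolated as blastocysts at day 3.5 post coitum and their sex determined, and 1 Affymetrix Mouse Gene 1.0 ST array was hybridised per pool of 3 embryos of the same sex and mother. The 6 groups of 4 pools were male (XY) and female (XX) embryos of lean parents (both on control feed), of an obese father (high-fat feed) with a lean mother, and of an obese mother (high-fat feed) with a lean father. The labels count 7 animals on the high-fat feed and 14 on the control feed but do not tie pools to parents. The 8 pools from obese and the 16 from lean mothers outnumber these animals. If the counts cover all mothers, some obese and some lean mothers gave more than 1 pool. P-values then measure only the spread between these pools. A pool holds all cell types of the embryo, so fewer cells of a type and less RNA per cell cannot be told apart.

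Superoxide, which leaks mainly from the respiratory chain, is converted to hydrogen peroxide and oxygen by superoxide dismutases. Hydrogen peroxide is then broken down by catalase in peroxisomes, by glutathione peroxidases at the expense of glutathione, and by peroxiredoxins, which are mostly recharged by thioredoxin. In preimplantation embryos, which are sensitive to the oxygen tension of their surroundings, these enzymes limit oxidative damage and also set the peroxide level that acts as a signal.

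The stretches upstream of Sod1, Cat and Prdx1 are shown because Sod1 and Cat were the members whose levels separated groups of pools, and Prdx1, by the probe set used, was the member that followed the signal spread of the array most closely. Whether the probes of that Prdx1 set lie at the locus shown was not checked. They are the 250 bases before the RefSeq transcription start (assembly GRCm38.p6, 5′ to 3′ on the gene's strand), with matches to 4 motifs in capitals: the core of the antioxidant response element (TGACNNNGC), a TATA box (TATAAA), a GC box (GGGCGG) and a CCAAT box (CCAAT), each searched on both strands. The Sod1 window is chr16:90220512-90220761 on the plus strand, the Cat window chr2:103485154-103485403 on the minus strand and the Prdx1 window chr4:116685349-116685598 on the plus strand.
Sod1: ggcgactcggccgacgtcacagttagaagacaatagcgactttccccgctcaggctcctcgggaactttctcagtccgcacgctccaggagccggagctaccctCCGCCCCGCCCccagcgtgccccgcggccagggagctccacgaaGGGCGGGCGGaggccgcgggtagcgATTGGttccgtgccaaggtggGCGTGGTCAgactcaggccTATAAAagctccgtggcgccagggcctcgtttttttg
Cat: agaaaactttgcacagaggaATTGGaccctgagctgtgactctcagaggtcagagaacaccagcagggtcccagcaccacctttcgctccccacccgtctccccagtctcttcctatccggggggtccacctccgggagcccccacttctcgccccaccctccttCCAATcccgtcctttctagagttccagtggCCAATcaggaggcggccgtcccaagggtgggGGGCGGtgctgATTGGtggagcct
Prdx1: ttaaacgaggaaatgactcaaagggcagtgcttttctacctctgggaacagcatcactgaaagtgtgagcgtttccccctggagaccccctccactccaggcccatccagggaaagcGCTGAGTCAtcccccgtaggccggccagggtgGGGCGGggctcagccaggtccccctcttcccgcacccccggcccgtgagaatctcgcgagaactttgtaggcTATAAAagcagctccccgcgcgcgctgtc

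The antioxidant response element core, the letters bound by NRF2 with small MAF proteins, matched 2 of the 9 members that have a RefSeq window, and matches of different motifs did not overlap. In Sod1 it lay on the opposite strand (GCGTGGTCA) 56 to 48 bases before the start, and in Prdx1 also on the opposite strand (GCTGAGTCA) 133 to 125 bases before it. The same letters occurred in 10.2% of all 32851 RefSeq windows of this length. A TATA box matched in 3 members, against 12.4% of all windows, and lay 37 to 32 bases before the start in Sod1 and 29 to 24 bases before it in Prdx1. A GC box matched in 7 members (32.7% of all windows) and a CCAAT box in 4 (33.8%). The Cat window held 4 CCAAT matches and 1 GC box, with no match to the antioxidant response element core or the TATA box. Gpx4 has 4 RefSeq windows and was counted once.

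The arrays had nearly equal means (2.82 to 2.86) but unequal signal spread, which is the standard deviation (SD) of all log2 values on an array and ran from 1.27 to 1.81. It averaged 1.56 ± 0.11 in males of obese fathers and 1.38 ± 0.12 in males of lean parents (SD, n = 4), and was widest on array 22 (1.81, a female pool of an obese father) and array 12 (1.72, a male pool of an obese father). The sex labels were set against sex-linked genes: the Y-linked Eif2s3y averaged 2.12 ± 0.52 in 12 male pools and 1.33 ± 0.18 in 12 female pools, and 10 male pools exceeded every female pool. Xist, whose RNA silences an X chromosome in females, averaged 2.74 ± 0.54 in female and 2.13 ± 0.28 in male pools, with 6 female pools above every male pool, so both genes were dim and overlapped between the sexes. The Y-linked Uty averaged 1.93 ± 0.20 in male and 1.75 ± 0.16 in female pools, with 5 male pools above every female pool. Kdm5d, also Y-linked, did not separate the sexes, at 1.72 ± 0.23 in male and 1.79 ± 0.36 in female pools, and neither of these genes exceeded the table's median on any array. Of the blastocyst markers, 10 of 12 trophectoderm genes and 8 of 12 inner cell mass genes exceeded the table's median on all 24 arrays.

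No member changed at an adjusted p under 0.05 in limma in any of the 14 comparisons made, in which between 0% and 0.00751% of all 13311 genes tested did. The largest separations were in male embryos of obese fathers, where Sod1 was higher and Cat lower in every pool than in every male pool of lean parents. There Sod1, the cytosolic copper-zinc superoxide dismutase, averaged 8.47 ± 0.51 against 6.97 ± 0.31 (log2 values, SD, n = 4), and Cat, the peroxisomal catalase, 3.73 ± 0.16 against 4.14 ± 0.26. Of the other 6 members, 5 had a higher mean in males of obese fathers, and their pools overlapped with those of lean parents. In females of obese fathers the Sod1 and Cat differences had the opposite sign. At an unadjusted p under 0.05 there were 4 members in the males (14.7% of all genes) and 0 in the females (2.84% of all genes).

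**Figure D1:**
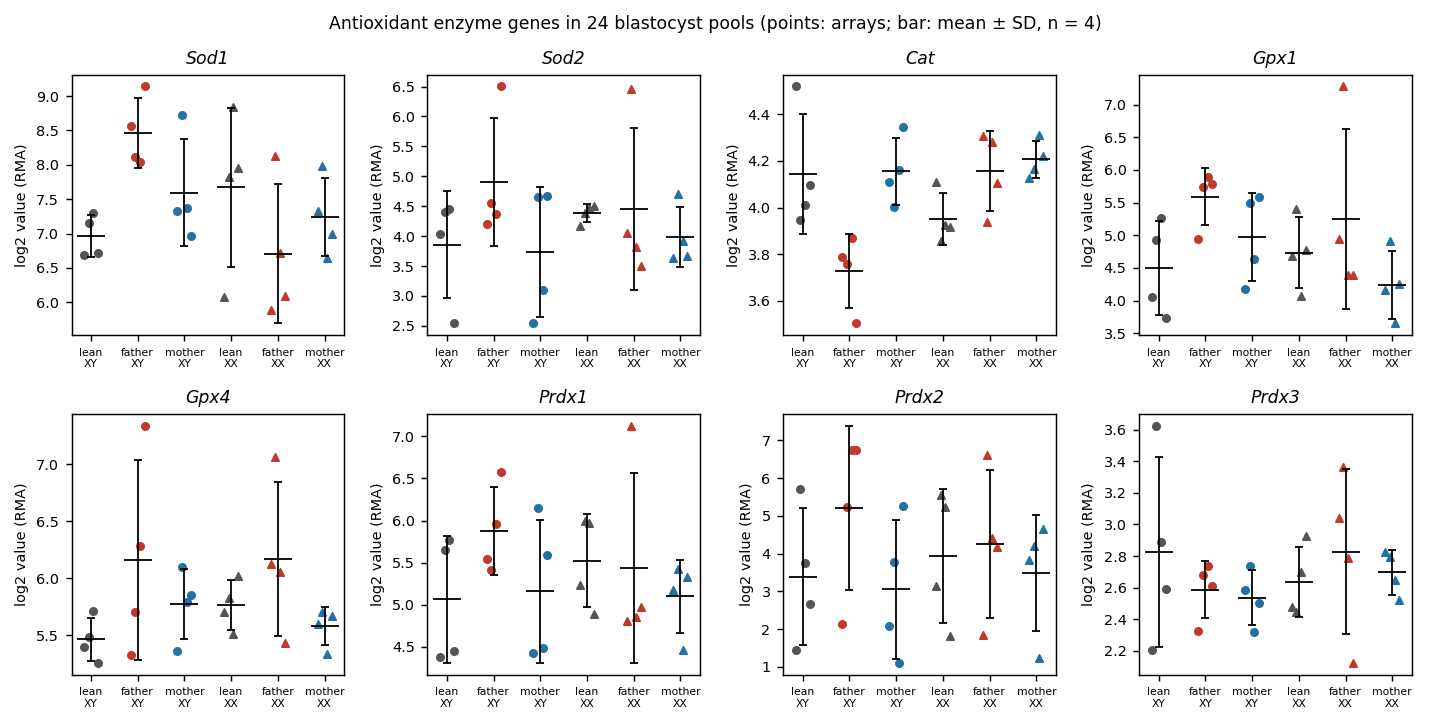
The log2 value (RMA) of each of the 8 measured genes is plotted for the 24 arrays, with circles for male (XY) and triangles for female (XX) pools, and grey for lean parents, red for an obese father and blue for an obese mother; bars give the mean ± SD (n = 4), and each panel has its own vertical scale. In males of obese fathers Sod1 lies between 8.04 and 9.14, above the 6.69 to 7.30 of lean parents, and Cat between 3.50 and 3.87, below the 3.95 to 4.52 of lean parents.

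Sod1 had the larger difference of the 2 members whose pools separated the males of obese fathers from those of lean parents. In males of lean parents the 4 pools read 6.69, 7.16, 7.30 and 6.72 for Sod1, and in males of obese fathers 8.56, 8.12, 8.04 and 9.14. The lowest pool of obese fathers was thus above the highest of lean parents. In males of obese mothers the pools read 7.32, 8.72, 7.37 and 6.97, and overlapped with both other groups of males. The female pools read 6.07, 7.83, 8.84 and 7.96 for lean parents, 5.89, 8.13, 6.72 and 6.09 for obese fathers, and 7.33, 7.98, 6.64 and 6.999 for obese mothers. All groups of females overlapped. Ordered by mean, Sod1 was highest in males of obese fathers (8.47), followed by females of lean parents (7.68 ± 1.16), males of obese mothers (7.60 ± 0.77), females of obese mothers (7.24 ± 0.57), males of lean parents (6.97) and females of obese fathers (6.71 ± 1.02), and the ranges of all neighbours in this order overlapped.

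Against males of lean parents, Sod1 in males of obese fathers differed by 1.50 on the log2 scale (SE 0.51), a linear ratio of 2.82, with an unadjusted p of 0.00763 and an adjusted p of 0.316 in limma. An unadjusted p under 0.05 was met by 4 of the 8 members, 3 higher and 1 lower, against 14.7% of all genes tested (4.3% higher and 10.4% lower). Pools of the groups did not overlap for 2 members, Sod1 above and Cat below, against 1.91% of all genes above and 6.63% below. Leaving out 1 array at a time moved the Sod1 difference between 1.27 and 1.64. The arrays of the males of obese fathers were also wider in signal spread on average, with overlapping ranges (1.49 to 1.72 against 1.27 to 1.53). With the spread as a covariate the Sod1 difference was 0.68 (adjusted p 0.738 in limma). After a further quantile normalization it was 0.61.

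The mitochondrial manganese enzyme Sod2 showed a weaker separation. Its 4 pools read 4.03, 4.41, 4.45 and 2.55 in males of lean parents and 4.20, 4.56, 4.37 and 6.50 in males of obese fathers. The last of these, array 12, stood well above the other 3, and the groups overlapped. Sod2 differed by 1.05 (SE 0.61, adjusted p 0.381), by 0.52 without array 12, and by -0.10 with the spread as a covariate. In females of obese fathers array 22 read 6.46 and the other pools 3.50 to 4.06, against 4.17 to 4.50 in females of lean parents. Pools of obese mothers ranged from 2.54 to 4.67 in males and from 3.63 to 4.71 in females.

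Catalase, and with it only Prdx3 of the members, had a lower mean in males of obese fathers. Its pools read 4.52, 3.95, 4.01 and 4.10 in males of lean parents, 3.79, 3.76, 3.87 and 3.50 in males of obese fathers, and 4.11, 4.00, 4.16 and 4.35 in males of obese mothers. The males of obese fathers lay below every male pool of the other groups. In females the pools read 4.11, 3.86, 3.93 and 3.91 for lean parents, 4.31, 3.94, 4.28 and 4.11 for obese fathers and 4.13, 4.16, 4.31 and 4.22 for obese mothers. The lowest female pool, 3.86 with lean parents, was just under the highest male pool of obese fathers (3.87). Ordered by mean, Cat was highest in females of obese mothers (4.21 ± 0.08), then females of obese fathers (4.16 ± 0.17), males of obese mothers (4.16 ± 0.14), males of lean parents (4.14), females of lean parents (3.95 ± 0.11) and males of obese fathers (3.73), with overlapping ranges between all neighbours.

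In males of obese fathers Cat differed from lean parents by -0.42 (SE 0.13), a linear ratio of 0.75, with an unadjusted p of 0.00386 and an adjusted p of 0.316 in limma. Leaving out 1 array at a time gave differences between -0.48 and -0.29. The difference was -0.28 with the array spread as a covariate (adjusted p 0.622) and -0.50 after a further quantile normalization. Against males of obese fathers, males of obese mothers were higher in Cat by 0.43 (SE 0.13, adjusted p 0.573), again without overlap of the pools (5.57% of all genes in that direction). In that comparison an unadjusted p under 0.05 was met by this 1 member, against 8.35% of all genes (6.27% higher), and the other 7 members had lower means in males of obese mothers, where 65.1% of all genes had a higher mean (Sod1 -0.87, Sod2 -1.17, Gpx1 -0.61, Gpx4 -0.39, Prdx1 -0.71, Prdx2 -2.16 and Prdx3 -0.05). This comparison shares its obese-father arrays with the comparison against lean parents.

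The glutathione peroxidases had higher means in the offspring of obese fathers of both sexes. Gpx1, the soluble enzyme that reduces hydrogen peroxide, read 4.06, 4.93, 5.26 and 3.73 in males of lean parents and 4.94, 5.73, 5.89 and 5.79 in males of obese fathers. Array 9 was the low pool among the latter, and it overlapped with lean parents. The difference was 1.09 (SE 0.51, unadjusted p 0.0426, adjusted p 0.331), and 0.17 with the spread as a covariate. Females read 4.68, 5.40, 4.07 and 4.78 for lean parents and 4.94, 7.28, 4.40 and 4.39 for obese fathers, and only array 22 (7.28) lay above the range of lean parents. Without that array the female difference was -0.16, against 0.52 with it. Pools of obese mothers lay between 4.18 and 5.58 in males and between 3.65 and 4.91 in females.

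Gpx4, which reduces lipid hydroperoxides within membranes and protects from ferroptosis, read 5.40, 5.48, 5.71 and 5.26 in males of lean parents and 5.32, 5.70, 6.28 and 7.34 in males of obese fathers. Of the latter, arrays 11 and 12 lay above the lean range and the other pools within it. The difference was 0.70 (SE 0.32, unadjusted p 0.0426, adjusted p 0.331), 0.31 without array 12, and 0.20 with the spread as a covariate. Females of obese fathers read 6.12, 7.06, 6.06 and 5.43 against 5.70, 5.82, 5.51 and 6.02 in females of lean parents, with 3 of the 4 above the lean range. The female difference was 0.41, and 0.11 without array 22. A second Gpx4 probe set followed the first across arrays (r = 0.990, n = 24) and averaged 6.02 ± 0.77 against 5.39 ± 0.15 in the same groups of males.

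By the probe sets used, the peroxiredoxins ranged from the most variable member, Prdx2, to the dim Prdx3. Prdx1, an abundant cytosolic peroxiredoxin, read 4.37, 5.65, 5.77 and 4.46 in males of lean parents and 5.54, 5.42, 5.96 and 6.57 in males of obese fathers, and differed by 0.81 (SE 0.49, adjusted p 0.390). The lean pools split into a low and a high pair, and the groups overlapped. Its second probe set (r = 0.920 with the first, n = 24) averaged 5.31 ± 1.07 against 3.75 ± 1.66. Which of the 2 sets reads the Prdx1 gene itself was not checked. With the spread as a covariate the Prdx1 difference was -0.12.

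Prdx2, the second cytosolic peroxiredoxin, read 1.44, 5.71, 3.76 and 2.66 in males of lean parents and 2.14, 5.24, 6.75 and 6.75 in males of obese fathers. The mean difference was the largest of the members (1.83) and so was its error (SE 1.20, adjusted p 0.424). Without array 1, a pool of lean parents, the difference was 1.18, and without array 9, a pool of obese fathers, 2.85. In both groups the pools covered most of the range of the gene. The second Prdx2 probe set disagreed: it correlated less with the first (r = 0.476, n = 24) and averaged 2.66 ± 0.52 in males of obese fathers and 2.75 ± 0.17 in males of lean parents. The mean difference of Prdx2 thus had opposite signs in its 2 probe sets. Where the probes of these sets lie in the genome was not checked. Which of the 2 sets reads the Prdx2 gene itself is therefore not known, and the values above are those of the set used. Prdx3, the mitochondrial peroxiredoxin, was close to the table's median and read 2.20 to 3.62 in males of lean parents and 2.33 to 2.73 in males of obese fathers, a difference of -0.24 (SE 0.24, adjusted p 0.595) that was 0.03 without array 2.

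**Figure D2:**
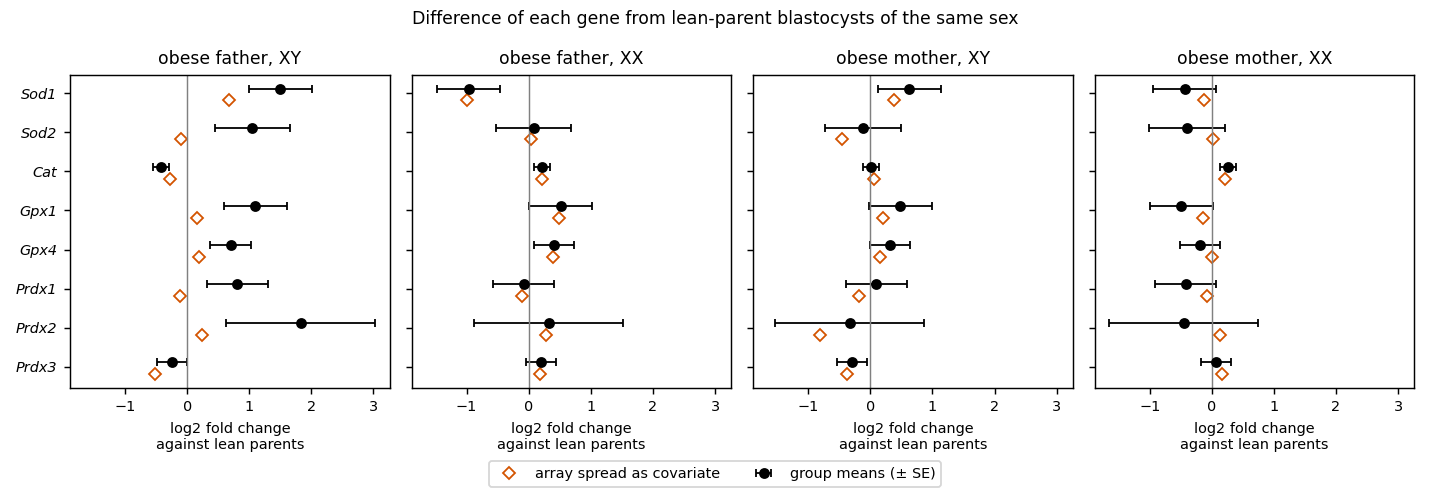
Each panel plots, for the 8 genes, the log2 fold change against lean parents of the same embryo sex, with filled circles and bars for the fit of group means (± SE) and open diamonds for the fit that also holds each array's spread as a covariate, shown without error. In males of obese fathers Sod1 moves from 1.50 to 0.68 and Sod2 from 1.05 to -0.10 between the fits, while Cat moves from -0.42 to -0.28.

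Across the 8 members the median difference between males of obese fathers and of lean parents was 0.93, against a median of -0.11 over all genes tested, and 6 of 8 members had a higher mean, against 33.3% of all genes. Leaving out 1 array at a time gave medians from 0.55, without array 12, to 1.14, without array 3. With the array spread as a covariate the median was 0.03. In females of obese fathers 0 members reached an unadjusted p under 0.05 in limma, against 2.84% of all genes, and the smallest adjusted p was 0.9997. The median difference was 0.20, against 0.02 over all genes, and -0.31 without array 22. Sod1 differed by -0.97 (SE 0.51), with -0.58 when array 15 and -1.50 when array 13 was left out, both of lean parents, and Cat by 0.21 (SE 0.13), and the others by 0.52 (Gpx1), 0.41 (Gpx4), 0.32 (Prdx2), 0.19 (Prdx3), 0.08 (Sod2) and -0.08 (Prdx1). Array 22 supplied the highest value of Sod1, Sod2, Gpx1, Gpx4, Prdx1, Prdx2 and Prdx3 in its group. Without it the differences of Sod2, Gpx1 and Prdx2 were negative, at -0.59, -0.16 and -0.46.

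The difference between the sexes in the obese-father effect was tested directly. For Sod1 the effect was 2.47 higher in males than in females (SE 0.72, unadjusted p 0.00247), and for Cat it was lower by 0.62 (difference -0.62, SE 0.18, unadjusted p 0.00246). Neither passed after adjustment over all genes (adjusted p 0.654 for each in limma). An unadjusted p under 0.05 was met by these 2 of 8 members, 1 in each direction, against 7.54% of all genes (1.86% higher and 5.68% lower). With the spread as a covariate the values were 1.67 for Sod1 (adjusted p 0.274) and -0.49 for Cat (0.293), and with weights for array quality 2.96 (0.069) and -0.70 (0.076). Leaving out 1 array at a time gave 2.08 to 3.001 for Sod1 and -0.70 to -0.50 for Cat.

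Within the offspring of obese fathers, male pools exceeded female pools in Sod1 by 1.76 (SE 0.51, unadjusted p 0.00231, adjusted p 0.838), with the highest female pool (8.13) above the lowest male pools. Cat was lower in males by 0.43 (difference -0.43, SE 0.13, adjusted p 0.838), and all 4 male pools were below all 4 female pools, as for 1.43% of all genes. An unadjusted p under 0.05 was met by these 2 members, against 5.42% of all genes (1.47% higher and 3.94% lower). Between the sexes, 0 members reached an unadjusted p under 0.05 in offspring of lean parents (3.37% of all genes) or of obese mothers (1.41% of all genes). The difference between the sexes in the obese-mother effect also had 0 such members (2.58% of all genes).

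With an obese mother, 0 members reached an unadjusted p under 0.05 against lean parents in males (1.7% of all genes) or in females (2.19% of all genes). In males Sod1 differed by 0.63 (SE 0.51), Gpx1 by 0.48 (SE 0.51), Gpx4 by 0.31 (SE 0.32), Prdx1 by 0.10, Cat by 0.01, Sod2 by -0.12, Prdx3 by -0.29 and Prdx2 by -0.33. In females 6 of 8 members had a lower mean, while 61.7% of all genes had a higher one, with Gpx1 at -0.49 (SE 0.51), Prdx2 at -0.45, Sod1 at -0.44, Prdx1 at -0.42, Sod2 at -0.40 and Gpx4 at -0.19. Prdx3 (0.06) and Cat had higher means. For Cat, all 4 female pools of obese mothers (4.13 to 4.31) lay above all 4 of lean parents (3.86 to 4.11), a difference of 0.26 (SE 0.13, unadjusted p 0.0597, adjusted p 0.999). Groups did not overlap in that direction for 1.89% of all genes. The comparison of obese mothers with obese fathers in females also had 0 members at an unadjusted p under 0.05 (3.25% of all genes), with a median difference of -0.41 that was 0.03 without array 22.

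Averaged over both sexes, obese fathers against lean parents gave 2 members with a higher level at an unadjusted p under 0.05, against 7.41% of all genes (2.81% higher), with a median of 0.46 and a smallest adjusted p of 0.623. The median was 0.16 without array 22, 0.27 without array 12 and -0.03 with the spread as a covariate. Obese mothers averaged over both sexes gave 0 (1.52% of all genes), and so did males against females averaged over the parents (2.17% of all genes).

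The level of most members followed the signal spread of the array. Over 24 arrays, Pearson's r with the spread was 0.921 for Prdx1 (Spearman's rho 0.892), 0.895 for Sod2 (0.849), 0.867 for Gpx1 (0.789), 0.775 for Gpx4 (0.605), 0.727 for Sod1 (0.783) and 0.669 for Prdx2 (0.599), while Cat ran the other way at -0.647 (-0.621). For these 7 members the permutation p for r was at most 0.00072, at most 0.00082 after adjustment over the 8 members, and 1e-05 is the smallest that the permutations can give. The share of all genes tested that would pass the same test was not computed. The count therefore does not set the members apart from other genes. Prdx3 followed less closely (r = 0.398, permutation p 0.0583; rho = 0.411, permutation p 0.0477). When the 2 arrays whose spread lay farthest from the median were left out, r was 0.863 for Prdx1, 0.777 for Gpx1, 0.776 for Sod2, 0.742 for Sod1, 0.543 for Prdx2, 0.465 for Gpx4, 0.265 for Prdx3 and -0.602 for Cat. The relation was also present among pools of the same group, with r of deviations from the group means between 0.555 (Prdx3) and 0.911 (Prdx1) for the 7 members other than Cat and -0.600 for Cat. The spread is computed from the same arrays, so these relations are descriptions of the arrays, and their part in the parental differences was not tested beyond the covariate fits. Over all genes tested outside the members, the median r over the 24 arrays was 0.26 with Cat and between -0.40 and -0.16 with the 7 others. Cat thus varied with the larger share of genes, and the 7 others against it.

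**Figure D3:**
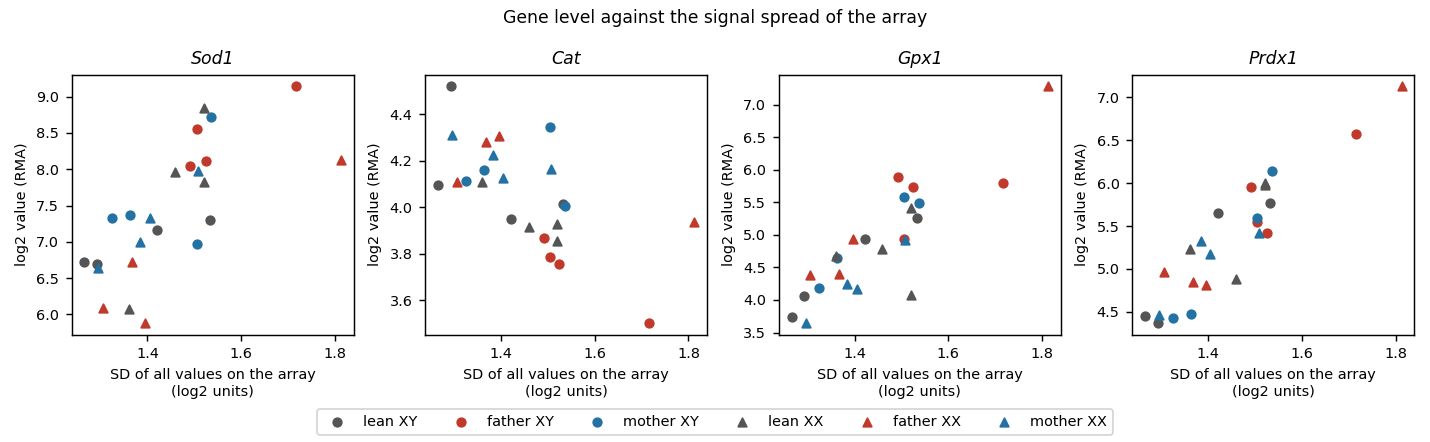
The log2 value (RMA) of Sod1, Cat, Gpx1 and Prdx1 is plotted against the SD of all values on the array (log2 units) for 24 arrays, coloured by parents (grey lean, red obese father, blue obese mother), with circles for XY and triangles for XX pools. Prdx1, shown by its probe set with the highest mean, climbs along the spread with r = 0.921 and Cat declines with r = -0.647. The 2 arrays on the right are arrays 12 and 22.

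The spread between pools of the same group differed widely between members. The residual SD was 1.86 for Prdx2, which 99.98% of the genes tested stayed below, and 0.93 for Sod2, 0.78 for Sod1 and Gpx1, 0.74 for Prdx1, 0.49 for Gpx4 and 0.36 for Prdx3. For Cat it was 0.16, and 3.91% of genes were steadier. The median over all genes was 0.26. With the array spread in the fit, the residual SD was 0.32 for Prdx1 and 0.44 for Sod2, whereas it was still 1.50 for Prdx2 and 0.13 for Cat, against a median of 0.21. These values are for the probe set used of each gene. The second Prdx2 set varied less, with an SD within groups between 0.17 and 0.64, against 1.53 to 2.17 in the first.

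Among themselves, 21 of the 28 pairs of members correlated at an adjusted permutation p under 0.05 over the 24 arrays. Of these, 15 had a positive r and 6 paired Cat with another member at a negative r. The share of pairs among all genes tested that would pass this threshold was not computed, so the count does not set the members apart. After the group means and the array spread were removed, 2 pairs were left below that threshold. Prdx1 and Prdx2 had r = 0.815 as deposited and 0.701 in the residuals (adjusted permutation p 0.00364). This pair was not tested with the second probe sets, and that of Prdx2 followed the first only loosely (r = 0.476). Which loci the sets used read was not checked, so the relation is between these probe sets and not known to be between the 2 genes. Sod1 and Gpx1 had r = 0.464 as deposited and -0.625 in the residuals (adjusted permutation p 0.0237). Sod1 and Cat, which separated the males of obese fathers in opposite directions, had r = -0.744 as deposited and -0.370 in the residuals (adjusted permutation p 0.428). The permutation p for residuals treats them as independent, which residuals of a fitted model are not.

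**Figure D4:**
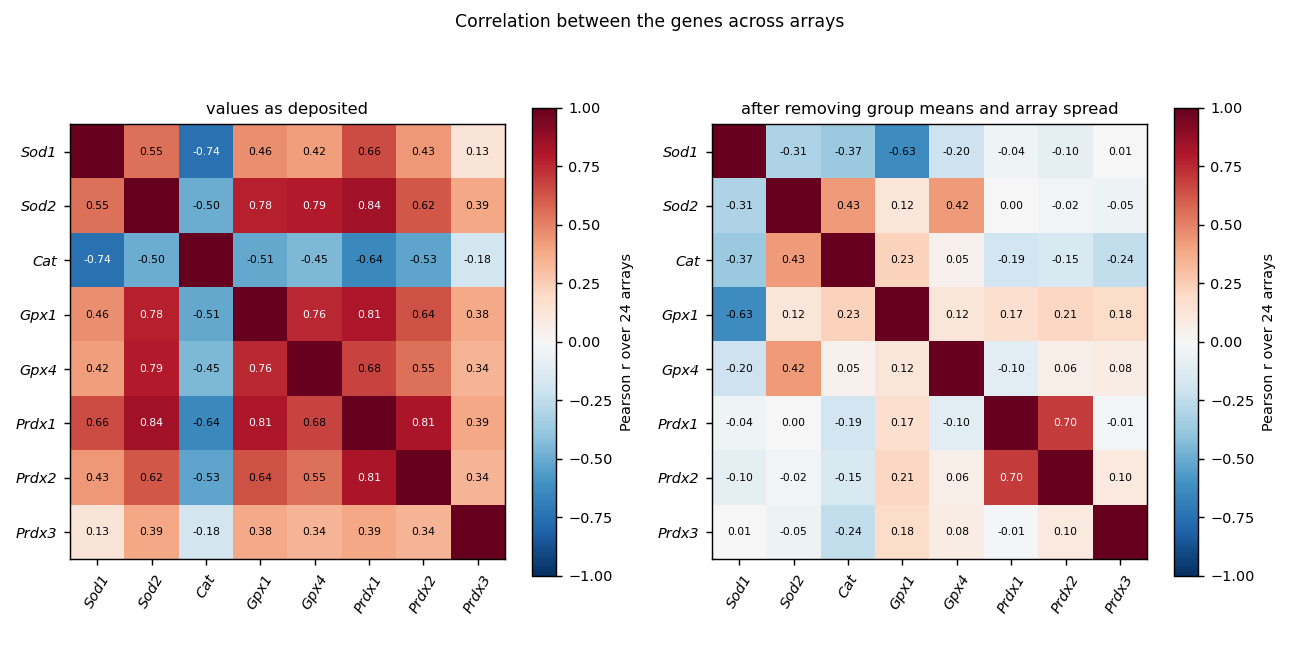
Pearson's r between each pair of the 8 genes over 24 arrays is shown in colour and in numbers, on the left for the deposited values and on the right after removing group means and array spread. The positive block on the left fades on the right except for Prdx1 with Prdx2 (0.70), and Sod1 with Gpx1 turns to -0.63. Each gene is shown by its probe set with the highest mean.

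For each member the gene outside the set with the most similar profile was found among all genes tested, over 24 arrays and after removal of group means and array spread. These were Mir195a for Sod1 (r = 0.859), Pi16 for Sod2 (0.807), Thsd7a for Cat (0.858), Pfn1 for Gpx1 (0.785), Gnpat for Gpx4 (0.786), Chst3 for Prdx1 (0.796), Dchs1 for Prdx2 (0.669) and Gpatch4 for Prdx3 (0.823). Each of these r is the highest picked from all genes tested, and how high such a maximum comes out by chance was not tested. In the deposited values 3 of these pairs had the opposite sign (Pi16 with Sod2 -0.531, Chst3 with Prdx1 -0.334 and Dchs1 with Prdx2 -0.464). The most similar genes in the deposited values were Gm15455 for Sod1 (r = 0.897), Psmd1 for Sod2 (0.920), Csrnp1 for Cat (0.835), Rpl10a for Gpx1 (0.917), Ssu72 for Gpx4 (0.870), Hspa9 for Prdx1 (0.943), Gsta4 for Prdx2 (0.814) and Oxct1 for Prdx3 (0.722).

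The partners of these enzymes were described in the same comparison of males of obese fathers with males of lean parents, and 0 genes of any list were called in any of the 14 comparisons. Over all genes tested, 4.3% were higher and 10.4% lower at an unadjusted p under 0.05 in this comparison, and each list's counts are to be read against these shares. In the thioredoxin and glutaredoxin system, which recharges the peroxiredoxins, 1 of 17 tested genes was higher at an unadjusted p under 0.05 and 0 lower, with a median of 0.20. That gene was Txn1, the cytosolic thioredoxin, which read 5.27, 7.43, 8.18 and 3.84 in lean-parent males and 7.66, 7.81, 8.23 and 7.80 in males of obese fathers. The pools of obese fathers were close together and overlapped with the upper end of the wide range of lean parents (difference 1.69, adjusted p 0.316 in limma). Txnl1, a thioredoxin-like protein, differed by 1.56 (adjusted p 0.347).

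Among the genes of glutathione supply, 0 of 10 were higher and 1 lower at an unadjusted p under 0.05 (median -0.15). That 1 was Gclm, the modifier subunit of the enzyme that limits glutathione synthesis, at 3.76 ± 0.08 against 4.35 ± 0.72 (difference -0.60, adjusted p 0.316). Array 3, a pool of lean parents, read 5.38, and the other lean pools 3.84 to 4.33. NADPH supply had 1 higher and 0 lower of 9 (median 0.09), with Taldo1, transaldolase of the pentose phosphate pathway, at 0.68 and Idh1, the cytosolic isocitrate dehydrogenase, at 1.37 (adjusted p 0.325 and 0.348). Selenoprotein synthesis, on which the glutathione peroxidases depend, had 0 higher and 1 lower of 8 (median -0.08; Sephs1 -0.44 and Scly -0.22).

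The list of copper and manganese delivery, whose genes do not all serve the dismutases, had 1 higher and 2 lower of 10 (median 0.02). Cox17, a copper chaperone of mitochondria, averaged 8.27 ± 0.51 against 6.99 ± 1.05 (difference 1.29, adjusted p 0.316), and Slc39a14, a manganese and zinc importer, 2.72 ± 0.11 against 3.21 ± 0.27 (difference -0.49, adjusted p 0.316). Peroxisome genes, whose products house catalase, had 1 higher and 1 lower of 13 (median 0.00). Of these Pex19, a receptor for peroxisomal membrane proteins, averaged 3.05 ± 0.13 against 3.37 ± 0.08 (difference -0.32, adjusted p 0.316), without overlap of the pools (6.63% of all genes in that direction), and Scp2, a peroxisomal lipid carrier and thiolase, differed by 0.61. The NRF2 and FOXO regulators and targets had 0 higher and 2 lower of 16 (median -0.06; Sirt3, the mitochondrial deacetylase, -0.33 and Blvrb -0.38), and the oxidant-producing enzymes 0 higher and 2 lower of 9 (median -0.22; Duox1 -0.44 and Shc1 -0.39).

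The other superoxide dismutase, peroxiredoxin and glutathione peroxidase genes, Sod3, Prdx4, Gpx2, Gpx3, Gpx5, Gpx6, Gpx7 and Gpx8, were mostly dim: 4 of 8 passed the filter and 2 never exceeded the table's median. Of the 4 tested, 0 were at an unadjusted p under 0.05 (median -0.16; Gpx7 -0.29 and Gpx8 -0.27). In females of obese fathers against lean parents the lowest p-values among the partners were for Idh2, the mitochondrial isocitrate dehydrogenase (0.52), Trnau1ap of selenoprotein synthesis (0.43) and Keap1, the repressor of NRF2 (0.26), each with an adjusted p of 0.9997. In males of obese mothers Gclm differed by -0.53, Slc39a14 by -0.39 and Pex10 by 0.43. These differences use the same lean-parent pools as those in males of obese fathers, so for Gclm and Slc39a14 they are not separate observations. In females of obese mothers Cox17 differed by -1.09 and Msra, a methionine sulfoxide reductase, by 0.42, with adjusted p of 0.999 in limma.

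Markers of the embryo's own cell types were set beside the members in males of obese fathers, again against 4.3% of all genes higher and 10.4% lower at an unadjusted p under 0.05. Of 12 trophectoderm genes 4 were higher and 0 lower at an unadjusted p under 0.05 (median 0.34), with Tspan8 at 2.41 and Lcp1 at 1.70, and their summed level spanned 8.79 to 10.09 in males of obese fathers and 8.03 to 9.30 in males of lean parents (log2 of the summed linear values). Of 12 inner cell mass genes 1 was higher (Pou5f1, 1.73) and 1 lower (Esrrb, -0.45), and of 11 tested primitive endoderm genes 0 were higher and 1 lower. Among markers of maternal or sperm-derived cells that a pool might contain, cumulus and granulosa cell genes had 0 higher and 4 lower of 8 (summed level 6.16 to 6.52 against 6.44 to 6.85), genes of erythroid cells, which are rich in catalase, 0 higher and 1 lower of 4 (5.61 to 5.85 against 5.80 to 6.25), leukocyte genes 0 of 6 in either direction (6.07 to 6.36 against 6.34 to 6.67), uterine and oviduct genes 0 of 7 (6.57 to 6.82 against 6.79 to 6.82), and sperm transcripts 0 higher and 2 lower of 10 (6.30 to 6.58 against 6.43 to 6.76). Markers that never exceeded the table's median on any array were 2 of the 12 named cumulus and granulosa genes, 1 of 6 erythroid (14 were listed), 6 of 13 leukocyte, 2 of 12 uterine and oviduct and 3 of 13 sperm genes. The part of these markers in the Sod1 and Cat differences was not tested.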

How the data were processed

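The authors deposited 1 log2 intensity per probe set and array. The submitters' processing notes name RMA and affy, without versions. RMA corrects background, normalizes across arrays and summarises probes. The table held 35556 probe sets on 24 arrays. GEO's platform annotation gave 1 symbol to 21789 of them, several to 1621 and none to 12146, and gene numbers of 21698 were found in RefSeq (GRCm38.p6). Of several probe sets of a gene (999 of 19938 genes) the set with the highest mean was used. Whether the probes of a set lie at the locus of the named gene was not checked. Genes with at least 4 of 24 arrays above the table's median were tested (13311; 6627 were not).

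A model with 6 group means was fitted with lmFit and eBayes of limma (version 3.58.1, R 4.3.3), on all 24 arrays and without covariates, because each group has 4 arrays. A gene was called at a Benjamini-Hochberg adjusted p under 0.05 over all genes tested in a comparison. Correlations used 100000 permutations (two-sided). The number of arrays limits the precision. The limma fit was tested on simulated data with independent noise for each gene and array. These data held no signal spread shared by the genes of an array and no pools of a shared mother.

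The genes and lists were chosen with earlier results of these data known. The text names all members, up to 2 genes per list with the smallest unadjusted p, and the most similar gene of each member; the markers and family genes named as groups follow the fixed lists. Alternatives covered the filter, probe sets, prior, array weights, scaling, the array spread as a covariate, the groups fitted, the threshold and the arrays. Protein sequences were not used here.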

Additional observations from a re-analysis of the deposited data

Results flagged for a closer look

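In 3 of the 48 combinations of a member and a group of 4 pools, 1 pool stood apart from the other 3 by more than Dixon's critical value, which chance gives in about 1 in 20 groups. Sod2 was highest on array 12 (6.50) among males of obese fathers, where the other pools lay between 4.20 and 4.56 and the gap was 0.841 of the range. Gpx1 was lowest on array 9 (4.94) in the same group, where the others lay between 5.73 and 5.89 (gap 0.838 of the range). Prdx1 was highest on array 22 (7.13) among females of obese fathers, where the others lay between 4.81 and 4.97 (gap 0.931 of the range). Arrays 12 and 22 also had the widest signal spread of the study (1.72 and 1.81).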

How the results depend on the processing

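No paired analysis was possible because the labels do not tie pools to parents, and the replicate numbers, from 1 to 24, recur in no other group. Whether the groups compared share mothers is not known. Of 2070 values recomputed under an alternative, 1968 were scored as unchanged, and 0 members were called in any of 314 alternative counts. For a single gene this meant the same sign and side of the threshold, and for a count an equal or similar number. A median was scored as unchanged when it moved by less than 0.60, the SD between replicates of the members' mean, even if its sign turned. The median in obese-father females (0.20, lowest -0.31 with 1 array left out) was such a case. Counts of all genes called stayed between 0 and 4. The cause of the changes below was not tested.

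With the array spread as a covariate, the median over the members was 0.033 in males of obese fathers against lean parents (0.93 without it), -0.046 in males of obese mothers against obese fathers (-0.66) and -0.17 in the difference between the sexes of the obese-father effect (0.74). The same covariate turned the sign in obese-father males (Sod2 -0.10, Prdx1 -0.12), obese-mother males (Prdx1 -0.18) and obese-mother females (Sod2 0.023, Gpx4 0.00015, Prdx2 0.13), each against lean parents. It did so in obese mothers against obese fathers (males; Gpx1 0.036, Prdx3 0.14), in males against females of obese fathers (Sod2 -0.12, Gpx1 -0.12, Prdx1 -0.025), and in the difference of the obese-father effect between the sexes (Sod2 -0.14, Gpx1 -0.32, Gpx4 -0.20, Prdx1 -0.012, Prdx2 -0.033).

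Array weights turned Sod2 (-0.50), Gpx1 (-0.058) and Prdx2 (-0.36) in obese-father females, Cat (-0.012) in obese-mother males and Prdx3 (-0.0022) in obese-mother females. Quantile normalization turned Sod2 (-0.16) in obese-father females, Cat (-0.042) in obese-mother males, Gpx4 (0.051) in obese mothers against obese fathers and Gpx4 (-0.30) in the difference between the sexes. Without the 2 widest arrays, Sod2 (-0.59), Gpx1 (-0.16) and Prdx2 (-0.46) turned in obese-father females, and Gpx4 (0.0067) in obese mothers against obese fathers. The mean of both Prdx2 sets gave -0.13 in obese-father females, and median centring Gpx4 0.029 in males against females of obese fathers.

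Leaving out 1 array at a time moved the median over the members between 0.058 and 1.004 for males against females of obese fathers and between 0.43 and 1.35 for the difference between the sexes, and the highest value of each came without array 22. Signs turned for Prdx3 in obese-father males (-0.45 to 0.027); for Sod2 (-0.59 to 0.40), Gpx1 (-0.16 to 0.80), Prdx1 (-0.65 to 0.13) and Prdx2 (-0.46 to 1.13) in obese-father females; for Sod2 (-0.555 to 0.28), Cat (-0.055 to 0.14), Prdx1 (-0.23 to 0.34) and Prdx2 (-1.07 to 0.44) in obese-mother males; and for Prdx2 (-1.16 to 0.29) and Prdx3 (-0.0028 to 0.16) in obese-mother females. They also turned for Gpx4 (-0.66 to 0.0067) and Prdx3 (-0.14 to 0.022) in obese mothers against obese fathers, for Sod2 (-0.084 to 1.11) and Gpx4 (-0.40 to 0.29) in males against females of obese fathers, and for Gpx4 (-0.10 to 0.59) in the difference between the sexes.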
